A study of Mus musculus with 6 samples.

Results

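The interferon regulatory factors are a family of transcription factors, and 8 of their genes were followed here in a mouse leukaemia cell line: Irf1, Irf2, Irf3, Irf4, Irf5, Irf7, Irf8 and Irf9. They were picked by gene name out of 53465 genes in the expression table, with the difference of Irf8 between the groups already known. The RPKM values of OMP and Vehicle libraries therefore chose the set, and the members' differences are given as a description, with no p-value. A count of members past the threshold of a fit across all genes is given beside the share over all genes, and nothing is drawn from it. Of the 8 genes, 7 passed a filter on low values, which kept a gene if 3 or more of the 6 libraries had an RPKM of 1 or above and left 11020 of all genes. RPKM scales reads to a length taken for the gene and to the total of the library, so a comparison between genes depends on that length.

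The OMP group held 3 libraries from Nras(G12D)/MLL-AF9 cells given 100 µM 4'-O-methylpyridoxine (OMP), a vitamin B6 analogue, for 6 days. The Vehicle group held 3 libraries from the same cells given an equal volume of PBS. Both groups carry the mutant Nras(G12D) and the fusion MLL-AF9 and grew in RPMI with serum and mouse SCF, IL-3 and IL-6. The labels give blood as the tissue and say neither whether the line is a clone nor whether the replicates were separate cultures. The p-values therefore speak only of these 3 and 3 libraries. They set the difference between group means against the scatter within groups, moderated over all tested genes, and part of that scatter may be technical. Poly(A) RNA was sequenced. The library totals recovered from the RPKM steps were 3494986 to 3720117 reads in OMP libraries and 3737843 to 4247619 reads in Vehicle libraries.

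Markers of myeloid leukaemia cells were present, and genes that define other blood cells were mostly at or near 0. All 13 listed myeloid genes passed the filter, and their summed RPKM was 1645 to 1750 in OMP libraries and 3120 to 3203 in Vehicle libraries, with the granule proteases Elane and Ctsg at the highest levels. The genes of this list lay on both sides, 4 called higher and 6 lower in OMP libraries by the fit across all genes. That is 30.8% and 46.2% of the list, beside 15.4% and 27.5% of all tested genes. The median log2 fold change of the list was -0.06, so the sum follows its most abundant members. Ms4a1, Pax5 and Ebf1, which mark B cells, were at 0 reads in all 6 libraries, and the 10 B cell markers, led by Blnk and Igll1, summed to 0.745 to 1.17 RPKM in OMP libraries and 0.401 to 1.496 RPKM in Vehicle libraries. Of the 10 T and NK cell markers 8 were at 0, and the list summed to 2.58 to 4.04 RPKM in OMP libraries and 3.10 to 3.34 RPKM in Vehicle libraries. The 8 erythroid markers, 4 of them at 0, summed to 0.160 to 0.724 RPKM in OMP libraries and 0.479 to 0.959 RPKM in Vehicle libraries. The 8 mast cell, basophil and eosinophil markers, 3 of them at 0, summed to 8.04 to 11.04 RPKM in OMP libraries. Their sum was 8.76 to 10.6 RPKM in Vehicle libraries. Most of it came from Mcpt8, which was not near 0, with means of 7.89 RPKM in OMP libraries and 7.32 RPKM in Vehicle libraries. Another gene of this list, Ms4a2, was called lower in OMP libraries (log2 fold change -1.12 ± 0.27, limma adjusted p = 0.0104). The 6 megakaryocyte markers, with Pf4 at 0, summed to 3.81 to 4.49 RPKM in OMP libraries and 1.12 to 1.44 RPKM in Vehicle libraries.

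Interferon regulatory factors share an N-terminal DNA-binding domain that reads GAAA repeats in promoters. Irf3, Irf5 and Irf7 are switched on by phosphorylation after receptors sense microbial nucleic acids or lipids and then drive interferon genes, Irf9 joins STAT proteins such as Stat2 to carry the interferon signal into the nucleus, and Irf1 and Irf2 oppose each other on many of the same sites. Irf8 works largely in blood cells, binds DNA together with partners such as Spi1 (PU.1), and is known for directing myeloid progenitors towards monocytes and dendritic cells and away from granulocytes.

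Irf8 (ENSMUSG00000041515, chr8:120736358-120756694, plus strand, GRCm38) was much lower in OMP libraries. Its level was 7.14, 7.61 and 6.14 RPKM in OMP libraries, against 39.1, 36.4 and 40.4 RPKM in Vehicle libraries. These rested on 71, 77 and 65 reads in OMP libraries and on 416, 424 and 488 reads in Vehicle libraries. The groups were far apart relative to the spread within either of them, with means of 6.96 ± 0.754 RPKM in OMP libraries and 38.6 ± 2.02 RPKM in Vehicle libraries (SD, n = 3 each). The log2 fold change, on the log2(RPKM + 0.5) scale used throughout, was -2.39 ± 0.0873 (SE), which is a 5.26-fold lower value in OMP libraries. In these bulk samples, fewer cells that express a gene and less of its RNA per cell cannot be told apart.

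Among the 11020 genes tested, ordered from the lowest log2 fold change, Irf8 stood at rank 6, and 7 genes were lower in OMP libraries by 5-fold or more. Its mean RPKM lay at percentile 34.7 of the tested genes in OMP libraries and at percentile 79.4 in Vehicle libraries. The log2 fold change ran from -2.52 to -2.31 over 16 other ways of processing the values, leaving out each library in turn among them. No exon of another annotated gene overlaps Irf8, so its reads have no second annotated source at this locus.

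The sequence before the start of Irf8 is shown with those of Irf1 and Irf2, because these were the only members whose start-site windows held either of the motifs searched. All 8 members matched the RefSeq promoter table (GRCm38.p6), with 11 windows between them, and the 250 bases before each start were searched on both strands. The motifs were TTCNNNGAA, the palindromic gamma-activated site (GAS) that STAT dimers bind, and GAAANNGAAA, the interferon-stimulated response element (ISRE) that interferon regulatory factors bind. Matches are in capitals in the windows of chr8:120736108-120736357, chr11:53769764-53770013 and chr8:46739495-46739744, all on the plus strand and written 5′ to 3′.
Irf8: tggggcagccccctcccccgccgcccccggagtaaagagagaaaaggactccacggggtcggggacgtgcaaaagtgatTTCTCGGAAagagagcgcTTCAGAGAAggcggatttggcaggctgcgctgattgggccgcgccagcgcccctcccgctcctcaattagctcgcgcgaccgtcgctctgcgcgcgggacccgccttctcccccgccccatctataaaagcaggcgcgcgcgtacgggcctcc
Irf1: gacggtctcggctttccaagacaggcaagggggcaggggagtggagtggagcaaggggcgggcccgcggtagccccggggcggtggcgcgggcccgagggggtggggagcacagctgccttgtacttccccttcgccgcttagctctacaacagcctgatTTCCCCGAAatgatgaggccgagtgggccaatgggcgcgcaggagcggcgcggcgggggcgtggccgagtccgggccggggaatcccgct
Irf2: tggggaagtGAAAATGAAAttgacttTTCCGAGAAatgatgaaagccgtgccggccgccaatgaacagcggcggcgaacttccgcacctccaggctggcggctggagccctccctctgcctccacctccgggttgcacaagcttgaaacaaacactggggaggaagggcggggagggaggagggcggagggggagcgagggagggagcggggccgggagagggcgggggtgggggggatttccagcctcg

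The Irf8 window shown held 2 GAS matches, TTCTCGGAA at positions -171 to -163 and TTCAGAGAA at -153 to -145, counted from the start site. The Irf1 window shown held 1, TTCCCCGAA at -90 to -82. The Irf2 window held a GAS match, TTCCGAGAA at -224 to -216, beside an ISRE match, GAAAATGAAA at -241 to -232. Irf8 and Irf1 each had another window, not shown, that held neither motif. In the whole table of 32851 windows of this length, 7.02% held a GAS match, 2.98% an ISRE match and 0.332% both. A match is a stretch of letters and does not show that a factor binds there. Whether these matches bear on the difference of any member between the groups was not tested.

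**Figure D1:**
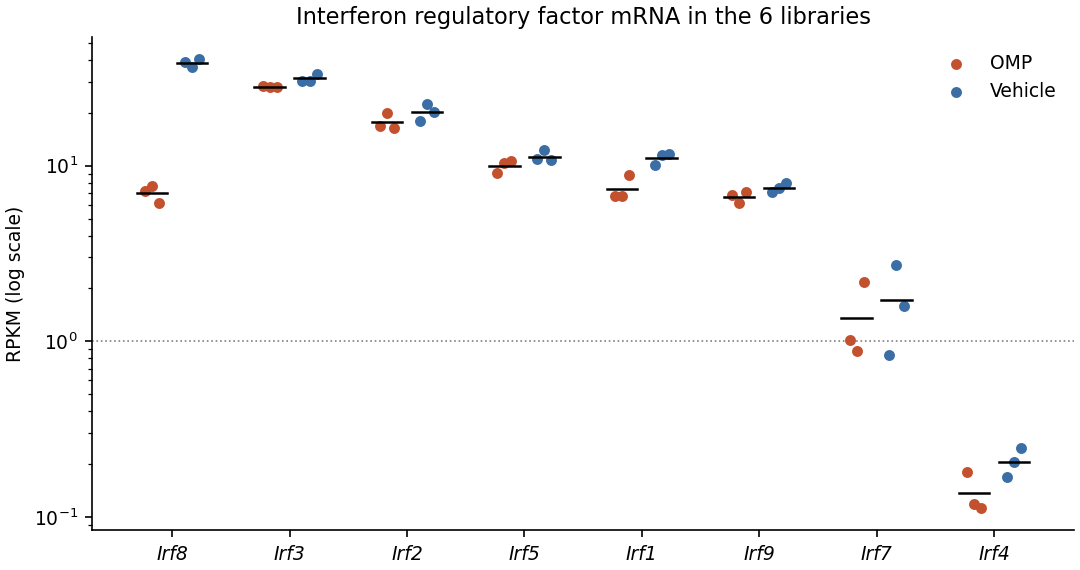
RPKM of the 8 interferon regulatory factor genes on a log axis, each point 1 library, with the 3 OMP libraries left of the 3 Vehicle libraries and genes ordered by their Vehicle level. The bar is the group mean and the dotted line marks an RPKM of 1. Irf8 sits between 6.14 and 7.61 RPKM in OMP libraries and between 36.4 and 40.4 RPKM in Vehicle libraries, while the points of most other members lie close together.

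Irf1 (ENSMUSG00000018899, chr11:53770014-53778374, plus strand), an activator first known from the interferon beta gene and induced by interferon gamma, was also lower in OMP libraries. Its level was 6.70, 6.72 and 8.81 RPKM in OMP libraries, against 10.0, 11.4 and 11.7 RPKM in Vehicle libraries. All 3 OMP libraries were below all 3 Vehicle libraries, with OMP replicate 3 the nearest to them. The means were 7.41 ± 1.21 RPKM in OMP libraries and 11.04 ± 0.899 RPKM in Vehicle libraries, and the log2 fold change was -0.55 ± 0.121, a 1.47-fold lower value that ran from -0.68 to -0.45 over the alternatives. Irf1 stood at rank 1315 of the tested genes from the lowest log2 fold change, so a difference of its size was common in this comparison. Its exons share 135 bases with Gm17334 on the opposite strand, and without the strand setting of the counting the reads of the pair cannot be told apart there.

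Irf2 (ENSMUSG00000031627, chr8:46739732-46847458, plus strand), a repressor at many sites that Irf1 activates, had groups that overlapped. Its level was 16.7, 19.96 and 16.4 RPKM in OMP libraries, against 18, 22.4 and 20.3 RPKM in Vehicle libraries. OMP replicate 2 was above Vehicle replicate 1, and the log2 fold change was -0.19 ± 0.102. The ratio of Irf1 to Irf2 RPKM was 0.425 ± 0.103 in OMP libraries and 0.548 ± 0.0338 in Vehicle libraries, and its groups also overlapped, since it reached 0.538 in OMP replicate 3 and was 0.510 in Vehicle replicate 2.

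Of the members that act below pattern-recognition receptors, Irf3 and Irf5 differed little, and Irf7 had too few reads to tell. Irf3 (ENSMUSG00000003184, chr7:44997648-45002848, plus strand), which is made constitutively and activated by Tbk1, was at 28.3, 28.0 and 28.2 RPKM in OMP libraries, against 30.4, 30.2 and 33.4 RPKM in Vehicle libraries. All OMP values were lower than all Vehicle values, with a log2 fold change of -0.15 ± 0.0561. The 3 OMP values were closer together than counting error alone gives (chi-square over degrees of freedom 0.00633), so their SD of 0.159 RPKM understates the error of a library.

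Irf5 (ENSMUSG00000029771, chr6:29526625-29541871, plus strand), which acts below Myd88 in macrophages and dendritic cells, was at 9.07, 10.3 and 10.6 RPKM in OMP libraries, against 10.9, 12.2 and 10.7 RPKM in Vehicle libraries. The groups were separated by the small gap between OMP replicate 3 and Vehicle replicate 3, and the log2 fold change was -0.17 ± 0.0906. Exons of Irf5 share 411 bases with Tnpo3 on the opposite strand, those of Irf3 share 88 bases with Bcl2l12 and those of Irf7 share 45 bases with Phrf1, both also on the opposite strand.

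Irf7 (ENSMUSG00000025498, chr7:141262706-141266481, minus strand), the interferon-induced amplifier of interferon alpha production, was the lowest of the tested members. Its level was 1.02, 0.881 and 2.16 RPKM in OMP libraries, against 0.837, 2.73 and 1.58 RPKM in Vehicle libraries, from 7 to 18 reads in OMP libraries and 7 to 25 reads in Vehicle libraries. The groups overlapped across their whole range, and the log2 fold change of -0.23 ± 0.384 ran from -0.55 to 0.09 when libraries were left out in turn or the processing was changed. A difference in Irf7 was therefore not detectable at this depth.

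Irf9 (ENSMUSG00000002325, chr14:55603571-55610030, plus strand), the DNA-binding subunit of the complex with Stat2, was at 6.77, 6.09 and 7.09 RPKM in OMP libraries, against 7.05, 7.43 and 7.96 RPKM in Vehicle libraries. OMP replicate 3 lay just above Vehicle replicate 1, and the log2 fold change was -0.16 ± 0.098. Of the Irf9 exons 123 bases are shared with Rnf31 on the same strand, so those reads cannot be assigned even with strand.

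Irf4 (ENSMUSG00000021356, chr13:30749226-30766976, plus strand), the closest relative of Irf8 and a factor of lymphocytes and plasma cells, did not pass the filter. It was at 0.180, 0.118 and 0.113 RPKM in OMP libraries, against 0.168, 0.205 and 0.247 RPKM in Vehicle libraries, from 7 reads in all in OMP libraries and 12 reads in all in Vehicle libraries. Scaled to the library totals the ratio of these reads was 0.655, with a 95% counting interval of 0.219 to 1.80, so no difference was detectable.

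Of the 7 tested members 2 passed the threshold of the fit across all genes (limma, Benjamini-Hochberg adjusted p of 0.05), Irf8 and Irf1, both lower in OMP libraries. That is 28.6% of the tested members, beside 43.0% of all tested genes, of which 15.4% were higher and 27.5% lower. With median-of-ratios scaling the calls over all genes split into 2366 higher and 2236 lower, in place of 1702 higher and 3033 lower, and with TPM rescaling into 1215 higher and 3973 lower. TPM rescaling also brought Irf2 and Irf3 past the threshold, for 4 members, with Irf3 at -0.24 on the log2 scale, and at -0.06 with median-of-ratios scaling. Irf8, Irf1, Irf3 and Irf5 had groups that did not overlap, with OMP lower in each, which is 57.1% of the tested members beside 54.5% of all tested genes in either direction, 34.6% in this direction and 19.9% with OMP higher. Since the contrast chose the set, nothing is read from these shares.

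The log2 fold change was below 0 for all 7 tested members under the main processing and under each of the 3 other scalings, as it was for 60% of all tested genes under the main processing. Its median was -0.19 over the tested members and -0.18 without Irf8, beside a median of -0.09 and quartiles of -0.34 and 0.15 over all tested genes. Apart from Irf8 and Irf1, the tested members lay within the span from -0.23 for Irf7 to -0.15 for Irf3.

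**Figure D2:**
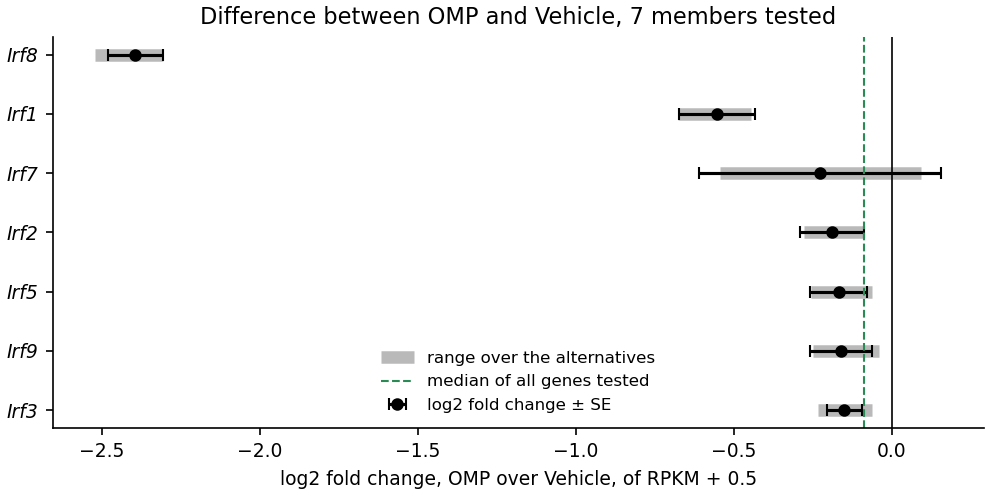
Log2 fold change (OMP minus Vehicle, on the log2(RPKM + 0.5) scale) of the 7 tested interferon regulatory factor genes, as points with their standard error. The grey bar behind each point is its range over the alternatives, and the dashed green line is the median of all tested genes at -0.09. Irf8 lies at -2.39 and Irf1 at -0.55, while the other 5 lie between -0.23 and -0.15.

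The order of the family's levels differed between the groups mainly in the place of Irf8. In OMP libraries mean RPKM fell in the order Irf3, Irf2, Irf5, Irf1, Irf8, Irf9, Irf7 and Irf4, and Irf1, Irf8 and Irf9 overlapped among themselves. In Vehicle libraries the order was Irf8, Irf3, Irf2, Irf5, Irf1, Irf9, Irf7 and Irf4, and the pair that overlapped was Irf5 and Irf1. Irf8, the highest member by RPKM in every Vehicle library, was thus in a group of 3 members near 7 RPKM in OMP libraries. The lengths implied by the RPKM steps were 2847 bases for Irf8 and 2031 bases for Irf3. All annotated exons of Irf8 and Irf3 cover 7055 and 3442 bases. The order and the sums below therefore hold for the lengths used, and other lengths were not tried.

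The summed RPKM of the 8 members was 75.9, 79.7 and 79.4 in OMP libraries, against 116.5, 123.0 and 126.2 in Vehicle libraries. Irf8 made up 8.90 ± 1.01% of this sum in OMP libraries and 31.7 ± 2.01% in Vehicle libraries, and Irf3 made up 35.98 ± 1.16% in OMP libraries and 25.7 ± 1.02% in Vehicle libraries. Without Irf8 the sum was 68.8 to 73.3 RPKM in OMP libraries and 77.4 to 86.7 RPKM in Vehicle libraries, so most of the gap in the family's total lay in Irf8.

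**Figure D3:**
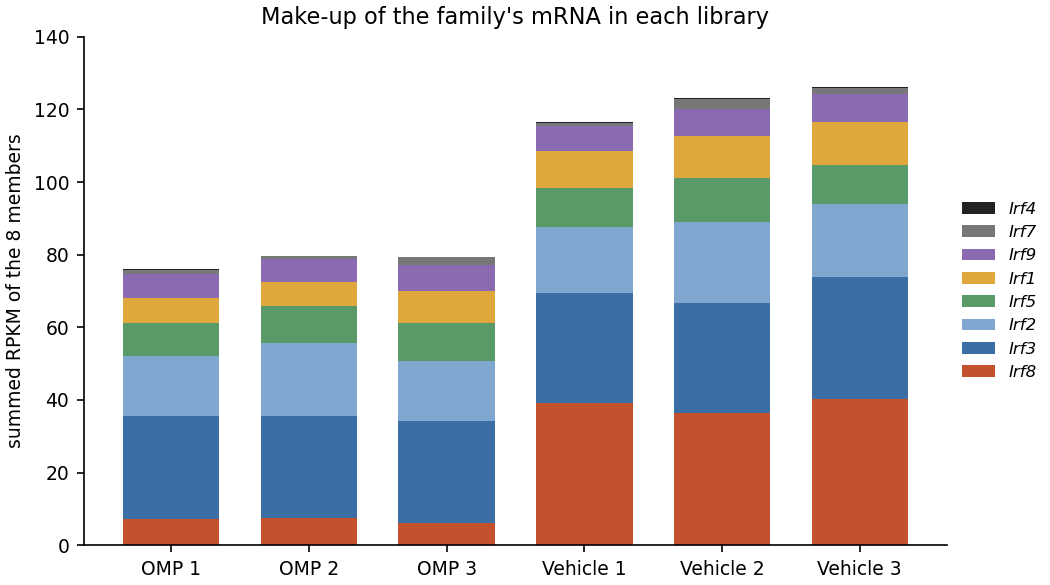
Summed RPKM of the 8 interferon regulatory factor genes in each library, stacked by member, with the 3 OMP libraries left of the 3 Vehicle libraries. The totals run from 75.9 to 79.7 RPKM in OMP libraries and from 116.5 to 126.2 RPKM in Vehicle libraries, and the Irf8 layer is the one that differs most in height.

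The ratio of Irf8 to its DNA-binding partner Spi1 (PU.1), the master factor of myeloid cells, was 0.0547, 0.0592 and 0.0487 in RPKM in OMP libraries, against 0.343, 0.321 and 0.358 in Vehicle libraries. Every OMP library was thus well below every Vehicle library. Irf8 was also low relative to Gfi1, a repressor that favours granulocytes, with an RPKM ratio of 0.177 ± 0.0186 in OMP libraries and 0.741 ± 0.0504 in Vehicle libraries. Relative to Cebpe, a factor of late granulocyte maturation, the RPKM ratio was 0.0785 ± 0.00887 in OMP libraries and 0.375 ± 0.03 in Vehicle libraries. Spi1, Gfi1 and Cebpe themselves had log2 fold changes of 0.18, -0.40 and -0.21, far smaller than that of Irf8. These ratios therefore mostly restate the difference of Irf8, which was known when the set was chosen.

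The genes whose profile over the 6 libraries was nearest to that of Irf8 included Ighm, Rassf4, Fads2 and Mpo, which were 4 of the nearest 5 out of 7837 genes compared, all with an average of 5 RPKM or more. The measure was the Euclidean distance between log2(RPKM + 0.5) values centred on the Vehicle mean, and it was 0.484 for Ighm, 0.555 for Rassf4, 0.606 for Fads2 and 0.789 for Mpo. Ighm, which encodes the immunoglobulin mu heavy chain constant region, was at 5.56, 5.64 and 4.75 RPKM in OMP libraries, against 38.0, 35.99 and 34.1 RPKM in Vehicle libraries, while the B cell genes Ms4a1, Pax5 and Ebf1 were at 0. Mpo, the myeloperoxidase of azurophil granules, was at 1.98, 2.97 and 2.93 RPKM in OMP libraries, against 12.7, 12.7 and 11.6 RPKM in Vehicle libraries. The log2 fold changes of these 4 genes ran from -2.65 for Ighm to -2.05 for Mpo. The likeness was the basis of the choice and is a description over 6 libraries.

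The genes that work with the family were described by lists, chosen with earlier results of these data known. Their limma p-values were adjusted over all 11020 tested genes and take no account of that choice. Over all genes 43.0% passed the threshold and the median log2 fold change was -0.09, and each list is given beside these values. Of the 63 list genes past the threshold, 38 stayed past it under every one of the 16 alternatives that gave a value for them, 12 of them higher and 26 lower in OMP libraries.

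Among 24 genes that activate Irf3, Irf5 and Irf7, 20 were tested, 4 were higher and 10 lower in OMP libraries, and the median log2 fold change was -0.18. Tlr4, the lipopolysaccharide receptor, rose to 25.4, 22.2 and 22.7 RPKM in OMP libraries, against 15.2, 14.6 and 14.4 RPKM in Vehicle libraries (log2 fold change 0.65 ± 0.0697, limma adjusted p = 0.000174). Ifih1, the cytosolic RNA sensor MDA5, fell to 2.77, 2.78 and 2.70 RPKM in OMP libraries, against 4.50, 4.78 and 4.69 RPKM in Vehicle libraries (-0.67 ± 0.121, limma adjusted p = 0.00263). The groups did not overlap in either gene. Ddx58, the sensor RIG-I, and the adaptors Ticam1 and Traf3 were the other genes called higher, all chosen here after their values were seen. Mavs, the mitochondrial adaptor of both RNA sensors, and Ikbke, a kinase of Irf3 and Irf7, were lower, with log2 fold changes of -0.57 ± 0.116 and -0.48 ± 0.0961 (limma adjusted p = 0.00477 and 0.00429), and were also chosen after their values were seen.

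The 14 calls of this list were 9 without Vehicle replicate 2 and 9 without Vehicle replicate 3, 2 higher and 7 lower each time. With TPM rescaling they were 2 higher and 11 lower, and with median-of-ratios scaling 5 higher and 7 lower. The calls of 7 genes held under every alternative, Tlr4, Ddx58, Ifih1, Mavs and Ikbke among them, while those of Ticam1 and Traf3 did not.

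No read was counted for any of the interferon genes listed. Ifnb1 and the 10 other interferon genes on the list, of types I, II and III, had 0 reads in all 6 libraries, and 3 reads of a gene of 1 kb would stand for an RPKM of 0.706 to 0.858. Transcripts of these genes below this level were not detectable, and interferon genes outside the list were not looked up.

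Of 14 genes of the interferon receptors and the JAK-STAT pathway 13 were tested, 2 were higher and 3 lower, and the median log2 fold change was 0.03. Ifngr1, the ligand-binding chain of the interferon gamma receptor, fell to 88.9, 87.2 and 83.2 RPKM in OMP libraries, against 173.2, 168.5 and 173.0 RPKM in Vehicle libraries, a 1.98-fold lower value (log2 fold change -0.99 ± 0.0389, limma adjusted p = 8.54e-07). Jak1, a kinase of both interferon receptors, rose to 68.4, 65.0 and 65.6 RPKM in OMP libraries, against 53.5, 53.7 and 56.0 RPKM in Vehicle libraries (0.28 ± 0.0435, limma adjusted p = 0.00112). The phosphatase gene Ptpn6, chosen after its values were seen, was the other one called higher.

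Stat2, which pairs with Irf9, fell to 7.16, 6.40 and 7.15 RPKM in OMP libraries, against 11.5, 10.0 and 9.42 RPKM in Vehicle libraries (-0.54 ± 0.1, limma adjusted p = 0.00286). The third lower gene, the kinase gene Tyk2, picked with its values known, had limma adjusted p = 0.0209 and lost the call under several alternatives. With median-of-ratios scaling the calls of this list were 3 higher and 2 lower, and with quantile normalization 4 higher and 2 lower.

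Of 35 interferon-stimulated genes 23 were tested, 2 were higher and 10 lower in OMP libraries, and the median log2 fold change was -0.23. The 2 genes with the smallest p-values were subunits of the immunoproteasome, which cuts peptides for MHC class I. Psmb8 fell to 39.2, 37.7 and 38.6 RPKM in OMP libraries, against 65.4, 68.8 and 66.5 RPKM in Vehicle libraries (log2 fold change -0.79 ± 0.0437, limma adjusted p = 5.41e-06). Psmb9 fell to 11.4, 11.3 and 9.55 RPKM in OMP libraries, against 24.2, 20.8 and 23.4 RPKM in Vehicle libraries, a 2.07-fold lower value (-1.05 ± 0.091, limma adjusted p = 5.76e-05). The third catalytic subunit, Psmb10, had a log2 fold change above 0, at 0.20 (limma adjusted p = 0.0346), a call that several alternatives lost. Oas2, an antiviral synthetase, was the other gene called higher, with a mean of 2.17 ± 0.297 RPKM in OMP libraries and 0.859 ± 0.533 RPKM in Vehicle libraries (limma adjusted p = 0.0281), and its call too was lost under several alternatives. Psmb10 and Oas2 were chosen after their values were seen, as were the next 2 genes.

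Ifit2, an antiviral protein of the interferon response, had the lowest log2 fold change named in this list, at -1.43 ± 0.174 (limma adjusted p = 0.000332), with means of 1.07 ± 0.121 RPKM in OMP libraries and 3.72 ± 0.253 RPKM in Vehicle libraries. Isg15, a ubiquitin-like protein induced by interferon, was at -0.01 on the log2 scale (limma adjusted p = 0.989). The 12 calls of this list were 7 without Vehicle replicate 3, all of them lower. With median-of-ratios scaling the list had 2 higher and 6 lower, and with quantile normalization 2 higher and 7 lower. TPM rescaling gave 1 higher and 10 lower. The calls of 6 genes, all lower, held under every alternative, among them Psmb8, Psmb9 and Ifit2.

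Of 19 partners and cofactors of the family 16 were tested, 6 were higher and 2 lower, and the median log2 fold change was 0.13. The higher genes were led by Jun proteins, which with Batf factors recruit Irf4 and Irf8 to composite sites. Batf, named after its values were seen, was not past the threshold (log2 fold change -0.14 ± 0.102, limma adjusted p = 0.298). Batf2 and Batf3 did not pass the filter. Jun rose to 9.24, 10.6 and 10.3 RPKM in OMP libraries, against 3.27, 2.68 and 2.66 RPKM in Vehicle libraries, a 3.13-fold higher value (log2 fold change 1.65 ± 0.117, limma adjusted p = 2.15e-05). Jund rose to 28.3, 30.9 and 29.5 RPKM in OMP libraries, against 13.8, 14.5 and 15.5 RPKM in Vehicle libraries, a 1.99-fold higher value (0.99 ± 0.0665, limma adjusted p = 1.51e-05).

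Spi1 was at 130.5, 128.7 and 126.1 RPKM in OMP libraries, against 113.9, 113.4 and 112.9 RPKM in Vehicle libraries (0.18 ± 0.0343, limma adjusted p = 0.00347), and with TPM rescaling its limma adjusted p was 0.0536. The related factor Spib, which can take the place of Spi1 in lymphoid and plasmacytoid cells, had 0 reads. The 2 lower genes, chosen after their values were seen, were Etv6, a repressor that binds with Irf8, and Tcf3 (E2A). Etv6 fell to 30.3, 32.4 and 33.9 RPKM in OMP libraries, against 50.3, 50.8 and 48.9 RPKM in Vehicle libraries (-0.63 ± 0.0544, limma adjusted p = 5.74e-05). The calls of Jun, Jund, Etv6 and Tcf3 held under every alternative, and with TPM rescaling the list had 3 higher and 3 lower. It had 4 higher and 4 lower without Vehicle replicate 1, and 9 higher and 2 lower with median-of-ratios scaling.

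Of 15 genes reported elsewhere as targets of Irf8, 11 were tested, 2 were higher and 4 lower, with a median log2 fold change of -0.07. Pml, the core protein of PML nuclear bodies, fell to 8.24, 8.48 and 8.88 RPKM in OMP libraries, against 14.9, 13.4 and 13.5 RPKM in Vehicle libraries (-0.67 ± 0.078, limma adjusted p = 0.000258). Mdm2, the ubiquitin ligase of p53, rose to 63.6, 67.7 and 66.3 RPKM in OMP libraries, against 50.5, 51.9 and 51.9 RPKM in Vehicle libraries (0.35 ± 0.0433, limma adjusted p = 0.000344). The other 3 lower genes, chosen after their values were seen, were Fancf of the Fanconi pathway, the survival gene Bcl2 and Gas2, with log2 fold changes of -0.56 ± 0.129, -0.44 ± 0.0734 and -0.42 ± 0.142 (limma adjusted p = 0.00828, 0.00175 and 0.0427). Cybb, the catalytic subunit of the phagocyte oxidase, was at -0.11 on the log2 scale and not past the threshold (limma adjusted p = 0.39). The call of Gas2 was lost under some alternatives, and with TPM rescaling the list had 1 higher and 5 lower.

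Of 24 genes of the monocyte and dendritic cell programme that Irf8 is known for, 15 were tested, 5 were higher and 5 lower in OMP libraries, and the median log2 fold change was -0.01. Cd14, the lipopolysaccharide co-receptor of monocytes, rose to 78.1, 76.8 and 73.0 RPKM in OMP libraries, against 22.5, 23.9 and 24.4 RPKM in Vehicle libraries, a 3.17-fold higher value (log2 fold change 1.67 ± 0.0523, limma adjusted p = 2.23e-07). Ctss, the cathepsin of antigen-presenting cells, fell to 9.93, 8.93 and 9.72 RPKM in OMP libraries, against 26.3, 26.3 and 23.6 RPKM in Vehicle libraries, a 2.58-fold lower value (-1.37 ± 0.0742, limma adjusted p = 4.97e-06). Genes of the same cell types thus lay on both sides.

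The other genes of this list past the threshold were chosen after their values were seen. Cd74, Id2, Itgax and Cd68 were called higher, with log2 fold changes of 1.45 ± 0.251, 1.04 ± 0.136, 0.84 ± 0.119 and 0.31 ± 0.0759 (limma adjusted p = 0.00206, 0.00048, 0.000755 and 0.0113). Ccr2, Ly86, Flt3 and Mpeg1 were called lower, and the calls of Flt3 and Mpeg1 were lost under several alternatives. Csf1r, the receptor of the monocyte growth factor, was at 0.01 on the log2 scale (limma adjusted p = 0.976). The 9 plasmacytoid dendritic cell markers summed to 234.1 to 236.3 RPKM in OMP libraries and 178.4 to 200.7 RPKM in Vehicle libraries, with the defining Siglech at 0. Of its 5 tested genes 2 were called higher and 2 lower, beside 15.4% higher and 27.5% lower over all tested genes. Cox6a2 averaged 111.4 RPKM in OMP libraries and 58.1 RPKM in Vehicle libraries. Bst2 averaged 49.8 RPKM in OMP libraries and 55.6 RPKM in Vehicle libraries. The 10 conventional dendritic cell markers summed to 12.3 to 15.1 RPKM in OMP libraries and 9.53 to 10.8 RPKM in Vehicle libraries, with Clec9a, Cd209a and Ccr7 at 0, and 1 of its 3 tested genes was called higher and 1 lower. The 6 plasma cell markers, 2 of them at 0, summed to 121.9 to 124.4 RPKM in OMP libraries and 100.7 to 103.4 RPKM in Vehicle libraries, mostly from Xbp1, which many secretory cells express. The other tested plasma cell marker, Sdc1, averaged 1.04 RPKM in OMP libraries and 2.37 RPKM in Vehicle libraries. The part of any of these cell types in the family's values was not tested.

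Of 13 factors of the choice between granulocytes and monocytes 12 were tested, 3 were higher and 7 lower, and the median log2 fold change was -0.41. Cebpa, which starts the granulocyte-monocyte programme, fell to 27.4, 27.7 and 25.9 RPKM in OMP libraries, against 46.4, 43.7 and 43.2 RPKM in Vehicle libraries (-0.71 ± 0.053, limma adjusted p = 2.7e-05). Egr1, an early growth response factor that favours monocytes, fell to 13.2, 13.8 and 13.3 RPKM in OMP libraries, against 26.3, 29.4 and 24.6 RPKM in Vehicle libraries, a 1.95-fold lower value (-0.96 ± 0.0757, limma adjusted p = 3.45e-05). Gfi1 fell to 39.3, 39.6 and 39.3 RPKM in OMP libraries, against 50.6, 53.3 and 52.6 RPKM in Vehicle libraries (-0.40 ± 0.0438, limma adjusted p = 0.000192). Gfi1, on the granulocyte side, and Egr1, on the monocyte side, were therefore both among the lower genes. The 3 genes called higher were Spi1, Cebpb and Id2, with log2 fold changes of 0.18 ± 0.0343, 0.29 ± 0.101 and 1.04 ± 0.136 (limma adjusted p = 0.00347, 0.0493 and 0.00048). Cebpb and Id2 were chosen after their values were seen, and the call of Cebpb was lost under several alternatives.

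Cebpe was at 81.2, 98.5 and 87.3 RPKM in OMP libraries, against 102.0, 106.4 and 100.7 RPKM in Vehicle libraries, and was called lower (-0.21 ± 0.0674, limma adjusted p = 0.032). Its limma adjusted p was 0.0792 without the filter, 0.17 with median-of-ratios scaling, and 0.0878, 0.0858, 0.0664, 0.0935 and 0.0563 without OMP replicate 1, OMP replicate 3, Vehicle replicate 1, Vehicle replicate 2 and Vehicle replicate 3. Runx1 and Myb, stem and progenitor factors chosen after their values were seen, were lower with log2 fold changes of -0.87 ± 0.129 and -0.42 ± 0.0368 (limma adjusted p = 0.000914 and 5.88e-05). With TPM rescaling the list had 1 higher and 8 lower.

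**Figure D4:**
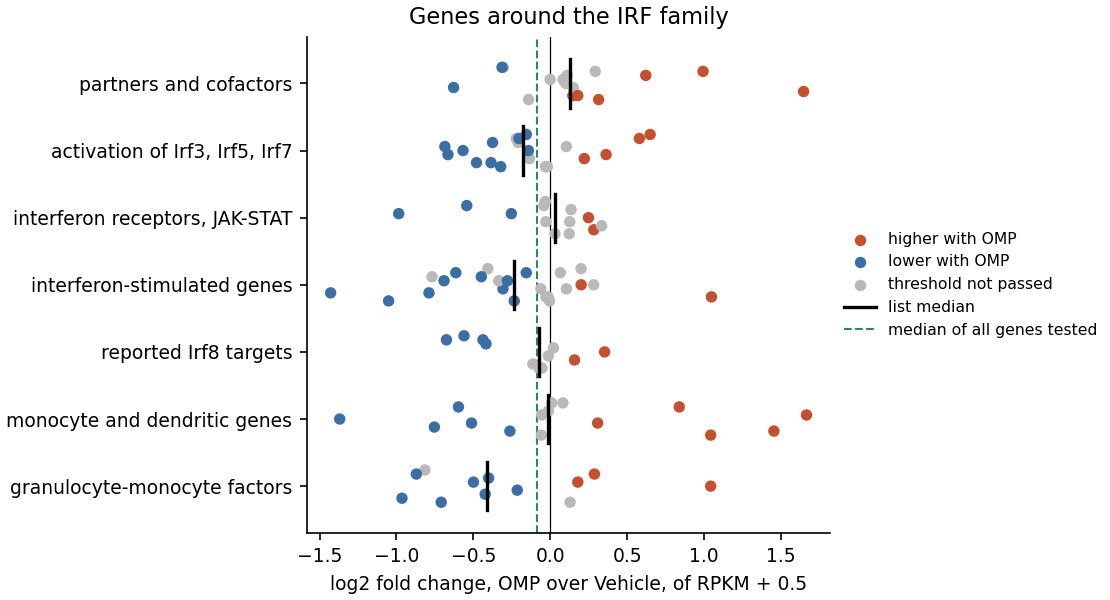
Log2 fold change (OMP minus Vehicle, on the log2(RPKM + 0.5) scale) of the tested genes of 7 lists around the interferon regulatory factors, each point a gene, with the list's median as a bar and the median of all tested genes, -0.09, as a line. The medians run from -0.41 for the factors of the granulocyte-monocyte choice to 0.13 for partners and cofactors, and every list has genes on both sides of 0.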

How the data were processed

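RNA of 3 OMP and 3 Vehicle libraries was measured by poly(A) RNA sequencing with TruSeq preparation, per the labels' protocols. The authors deposited RPKM values, and the submitters' processing notes list STAR 2.5.3a, featureCounts 1.6.3, Trimmomatic 0.36, FastQC 0.11.5 and the build GRCm38 (mm10). For the counting, which annotation release and strand setting were used is not stated. Gene positions and exon overlaps came from GENCODE M21, which held 53360 of the identifiers.

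The RPKM steps gave whole reads for 100% of the values of the 19970 genes above 0, within a relative tolerance of 1e-06, and the implied lengths equalled an annotated transcript for 94.6% of genes. Read counts and intervals cover counting error only.

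limma 3.58.1 in R 4.3.3 fitted log2(RPKM + 0.5) of genes at 1 RPKM or above in 3 or more of 6 libraries, with no covariate and a prior variance following the mean. P-values are two-sided, Benjamini-Hochberg adjusted over all genes tested, with a threshold of 0.05. Fold changes on this scale understate low genes.

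Members and lists were chosen with earlier results of these data known. Named genes were the members, the 2 genes of smallest p in each list that is not of markers, a few genes fixed by name (Spi1, Stat2, Ifnb1, Cebpe and Gfi1 among them), the 5 profiles nearest to Irf8 (named gene models and pseudogenes left out) and the 2 highest genes of each marker list, in all 52, some of which are not reported here. Lists share some genes, such as Spi1, Id2 and Itgax.

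The 16 alternatives were pseudocounts of 1 and 0.1, no filter, a filter at an RPKM of 5, a robust prior, TPM rescaling, quantile normalization, median-of-ratios scaling, a replicate block, limma-voom on the recovered reads, and leaving out each library. No library was a duplicate of another, since pairs within a group differed beyond sampling noise (chi-square over degrees of freedom 1.19 to 1.61).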

Additional observations from a re-analysis of the deposited data

How the results depend on the processing

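Under the 16 alternatives no result changed its direction past the threshold. Over all genes 4735 were past the threshold, 3968 to 4241 when a library was left out and 4027 to 5332 otherwise, the highest with limma-voom on the 100% whole reads recovered. The count of interferon regulatory factors past it was 2 in all but TPM rescaling, where it was 4. Leaving out libraries gave 9 to 12 calls, in place of 14, for genes that activate Irf3, Irf5 and Irf7, and 7 to 11, in place of 12, for interferon-stimulated genes; the cause was not tested. Of the members' values under alternatives, 106 moved by less than the spread between replicates and 5 by more, Irf3 with TPM (-0.24), median-of-ratios (-0.06) and quantile normalization (-0.08), Irf8 with TPM (-2.52) and Irf9 with quantile normalization (-0.04). Of the other genes' values 1097 kept their side of the threshold and 152 lost it. No scaling moved the median of all genes by over 0.1.

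Same-numbered libraries did not deviate together (correlations of -0.0024, 0.015 and 0.0069). No pairing was seen, but 3 libraries in a group cannot exclude one. With the replicate number as a block 4445 genes were past the threshold, 1598 higher and 2847 lower, and the count of interferon regulatory factors was 2. Depth limits Irf7, with 7 to 25 reads in a library, and Irf4, with 2 to 5.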
